A study of Mus musculus with 3 samples.

Results

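Gene expression was compared between BMDMs (bone marrow-derived macrophages) stimulated with CpG alone and BMDMs stimulated with IFN-γ together with αIL-10R, an antibody that blocks the IL-10 receptor. These are 2 of the 3 arrays of a study of the uptake of living cells by macrophages, and the third array holds cells given all of these agents (Triple). Bone marrow cells of C57BL/6J mice were cultured in M-CSF, taken from the medium of mouse L929 cells that express human M-CSF, and stimulated for 20 h. The paper gives a lower CpG concentration for the arrays than for its phagocytosis assays, and the effect of the dose was not tested here. The samples are labelled CpG and IFN-g+IL-10RB, no genetic change is named for either, and the age and sex of the mice are not given in the sources used here. Neither array is an untreated control, so a higher signal on one array can be a gain there or a loss on the other. αIL-10R was present only with IFN-γ, so the contributions of IFN-γ and of receptor blockade cannot be told apart. All probes that were not controls and carried no outlier mark on any array were used, which left 33597 of the array's 34821 gene names. Each condition had 1 array, so no test between the conditions was possible, and the number of arrays limits the precision of every value given here.

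CpG DNA is a ligand of TLR9, an endosomal Toll-like receptor that signals through MyD88 and IRAK kinases to NF-κB and MAP kinases and induces inflammatory cytokines and the feedback inhibitors of the same pathway. IFN-γ binds a surface receptor whose JAK kinases activate STAT factors, which bind GAS elements of genes such as Irf1, whose product then acts on ISRE elements. In macrophages this pathway is known for the GTPases of cell-autonomous defence, for MHC class II and for the chemokines CXCL9 and CXCL10. IL-10, which macrophages make after TLR stimulation, acts through STAT3 to restrain inflammatory genes.

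The signals given below are the scanner software's processed signals in arbitrary units, an intensity after background subtraction, and they are given in the order CpG, then IFN-γ + αIL-10R. A log2 difference is CpG minus IFN-γ + αIL-10R after the arrays were brought to a common 75th percentile, so that a negative value means a lower signal with CpG. A gene was detected if its probe was well above background on either array, and it was called higher on an array if it was detected there and differed more than 2-fold. Where only 1 of the signals was well above background, the dimmer one was set to no less than the array's lowest signal above background, and the fold is given as at least the resulting value. Between 44.4% and 46.0% of the spots of an array were well above background, no spot was saturated, and all arrays lay on the same slide and were scanned together, each condition at its own position. Replicate spots of 1 probe gave a technical SD of 0.12 for a log2 difference, which does not include the variation between cultures. Probes of closely related genes can hybridize to each other's transcripts, so values of single members of the Gbp, Tgtp, Serpina3, Cd55 and H2 families are uncertain in their assignment.

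Of the 18280 detected genes, 16287 (89.1%) were not called, of which 14998 were measured on both arrays and lay within 2-fold and 1289 had only a bound under 2-fold. The median log2 difference of all detected genes was 0.0038. CpG was higher at 925 genes, which is 2.75% of all genes measured and 5.06% of those detected, and IFN-γ + αIL-10R was higher at 1068 genes, 3.18% and 5.84%. The counts of list members given below stand beside these shares of detected genes. The median log2 difference of the called genes was 1.5 on the CpG side and −1.56 on the IFN-γ + αIL-10R side. The folds on the IFN-γ + αIL-10R side extended further, with 65 genes more than 16-fold higher against 29 with CpG, and 33 against 14 more than 32-fold higher. Within 2 technical SDs of the threshold were 258 of the genes called higher with CpG and 310 of those called higher with IFN-γ + αIL-10R. Other detected probes were available for only 457 of the 1993 called genes. Of these 623 probes 561 (90.05%) differed in the same direction, by any size. The scatter plot of signals shows both sets around the diagonal.

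**Figure D1:**
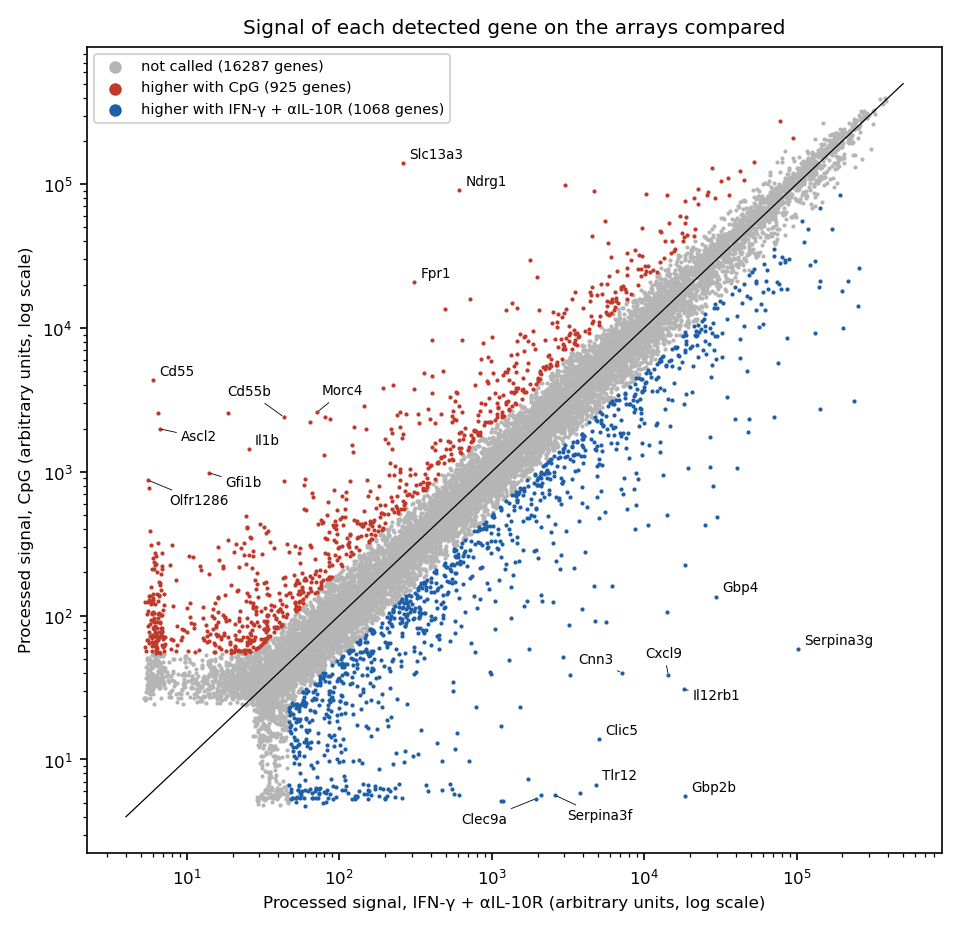
Processed signal of each detected gene with IFN-γ + αIL-10R (x axis) and with CpG (y axis), both in arbitrary units on log scales, with 1 array per condition, genes called higher on either array in colour, and the diagonal drawn as a line. Most genes (16287 of 18280, grey) were not called, Slc13a3, Ndrg1 and Cd55 stand far above the diagonal, and Serpina3g and Gbp2b lie far below it.

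Both cultures expressed macrophage genes, and all 11 macrophage markers measured were detected. Csf1r, the receptor for M-CSF, had signals of 196810 and 230482, and Adgre1, which encodes F4/80, had 151532 and 80481. The summed signal of these markers was 1367000 with CpG and 1427000 with IFN-γ + αIL-10R. Of the macrophage markers, Cd14 and Itgam were higher with CpG and Mertk and Fcgr1 were higher with IFN-γ + αIL-10R. RNA came from whole cultures, so fewer cells of a type and less RNA per cell cannot be told apart.

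Most markers of other cell types were dim or not detected. Each sum in this paragraph is over all markers measured, detected or not. Of 10 T cell markers 4 were detected, with summed signals of 1188 and 1339, and Cd3d, Cd3g and Cd8a were not detected. Of 10 B cell markers 3 were detected, with sums of 1167 and 647, and Ms4a1 and Pax5 were not. Cd79b, a chain of the B cell receptor complex, had signals of 801 with CpG and 182 with IFN-γ + αIL-10R. Of 8 NK cell markers 2 were detected, with sums of 273 and 300, and Ncr1 was not. The only detected mast cell marker was Tpsb2 (44.3 and 73.5). Of 12 neutrophil and precursor markers 7 were detected, with sums of 4247 and 9573, and Mpo, Prtn3, Ltf and Ngp were not detected. Of these 7 genes 3 were called higher with CpG and 1 with IFN-γ + αIL-10R, and 6 had a difference above 0 (median 0.79). The larger sum with IFN-γ + αIL-10R came from Ly6g (555 and 7699, 14.1-fold), whereas S100a8 (297 and 55.7), Mmp8 and Camp were higher with CpG, Camp only as a bound and with a second probe at −0.24. Of 8 dendritic cell markers measured 5 were detected, with sums of 38400 and 39480, mostly Siglech (36076 and 35974), and Flt3 and Xcr1 were not detected. Clec9a was the only one called, at least 84.0-fold higher with IFN-γ + αIL-10R. Stromal markers, 7 of 9 detected, summed to 7273 and 7335, and Pdgfra and Lum were not detected. The part of other cells in the differences described below was not tested.

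Slc13a3 had the largest measured fold on the CpG side. This gene, which encodes a sodium-coupled dicarboxylate transporter, had signals of 140393 with CpG and 261 with IFN-γ + αIL-10R, a difference of 529-fold. Ndrg1, a gene responsive to hypoxia and cell stress, had 90540 and 615 (145-fold). Fpr1, the receptor for bacterial formyl peptides, had 20789 and 311 (65.7-fold). These genes were bright on the CpG array and dim, but above background, on the other. Cd55b and Cd55 encode forms of decay-accelerating factor, which restrains complement on cell surfaces. Cd55b had 2405 and 43.4 (54.5-fold), and Cd55 had 4362 against a signal not well above background, at least 161-fold. A second Cd55b probe gave a log2 difference of 0.97, where the brighter one gave 5.77. Next in order were Morc4 (35.5-fold, second probe 1.32 on the log2 scale), Ppic, which encodes a cyclophilin (33.7-fold), Tmem176b (98610 and 3021, 32.1-fold), Pim2, a serine/threonine kinase (29.5-fold), and Spic, an Ets family factor known from red pulp macrophages of the spleen (2323 and 87.4, 26.1-fold). Clec4e, the receptor Mincle for mycobacterial glycolipids, had 8215 and 408 (19.8-fold). Among genes not well above background with IFN-γ + αIL-10R, the transcription factor genes Ascl2 (at least 73.4-fold) and Gfi1b (at least 36.3-fold), the cytokine gene Il1b (1445, at least 53.3-fold) and the olfactory receptor gene Olfr1286 (875, at least 32.2-fold) had the largest bounds after Cd55.

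On the IFN-γ + αIL-10R side Serpina3g had the largest measured fold. This gene, a protease inhibitor gene of the expanded mouse serpin cluster, had signals of 58.9 with CpG and 102135 with IFN-γ + αIL-10R, a difference of 1765-fold. Il12rb1, the subunit shared by the receptors for IL-12 and IL-23, had 30.7 and 18294 (606-fold, a log2 difference of −9.24), with a second probe at −4.83. Cxcl9, a chemokine for activated T cells, had 38.6 and 14431 (380-fold). All of these were close to background with CpG. Guanylate-binding protein genes took 4 of the next places, namely Gbp4 (220-fold), Gbp11 (136-fold), Gbp8 (85.9-fold) and Gbp2 (78.3-fold). Cnn3, which encodes an actin-binding calponin, had 40.1 and 7121 (181-fold), Calhm6, listed on the array as Fam26f, had 227 and 18512 (83.1-fold), and Plac8 had 90.9 and 5604 (62.7-fold, −5.97, second probe −4.17). For genes not well above background with CpG, the largest bounds were those of Gbp2b, listed on the array as Gbp1 (18472, at least 791-fold), Clic5, a chloride intracellular channel gene (5045, at least 216-fold), Tlr12 (4834, at least 207-fold), Serpina3f (2592, at least 111-fold) and Clec9a, a lectin receptor for dead cells known from dendritic cells (1963, at least 84.0-fold).

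The signal of the same genes on the Triple array can be set beside these values. Slc13a3 had a signal of 42458 there and Ndrg1 4333, each between its values on the other arrays. Fpr1 (58951), Clec4e (67349) and Il1b (30090) had signals above the CpG array. Olfr1286, which had no other detected probe, was not well above background there (5.61), although those cells also received CpG. Of the genes on the other side, Serpina3g (219645) and Cxcl9 (230855) had signals above the IFN-γ + αIL-10R array, Cnn3 (7323) and Gbp2 (252036) were close to it, and Plac8 (481), Gbp2b (1127), Tlr12 (717), Il12rb1 (4446) and Clec9a (152) lay between the other arrays. Triple too is 1 array.

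The receptor and the kinases of the IFN-γ pathway had similar signals on both arrays, and its feedback genes did not. Ifngr1, the ligand-binding chain of the receptor, had signals of 13427 and 13061, a log2 difference of 0.01, and the kinase gene Jak1 had 10964 and 10871 (−0.01). Jak2 had 3150 and 4952 (−0.68), short of 2-fold. Of the 14 genes of the receptor, JAK-STAT and SOCS list, all detected, 5 were higher with IFN-γ + αIL-10R and 1 with CpG, with a median of −0.35. Socs1, an inhibitor of JAK kinases that IFN-γ induces, had 1059 and 40651, which is 39.0-fold higher with IFN-γ + αIL-10R. Socs3, which encodes a feedback inhibitor of some cytokine receptors, was the gene called in the other direction, with 17358 and 8207 (2.08-fold higher with CpG). Stat2 (−1.02) and Stat3 (−1.14), transducers of type I interferon and of IL-10, were just past 2-fold, and Stat2 was under it when all probes set the 75th percentile (−0.97).

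Of 8 interferon regulatory factors measured, 3 were higher with IFN-γ + αIL-10R and none with CpG (median −0.81). Irf1, the primary IFN-γ target that drives a second tier of genes, had signals of 9196 and 132675, a 14.7-fold difference, and a second probe gave a log2 difference of −3.03. Irf8, a factor of monocyte and macrophage identity, had 20183 and 77123 (3.89-fold), and Irf2, a partner and antagonist of IRF1, had 1394 and 3174 (2.32-fold). Irf7, the amplifier of type I interferon, had 20185 and 31210 (−0.65). Irf3 (0.13) and Irf9 (0.02) differed by about the technical SD or less.

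All detected genes of both families of interferon-inducible GTPases were higher with IFN-γ + αIL-10R. These proteins attack the membranes of vacuoles that hold pathogens. Of the guanylate-binding proteins 11 of 11 were called, with a median log2 difference of −5.89 and a range from −9.63, a bound, to −3.24. Gbp2 had signals of 3111 and 239515, Gbp5, which also acts in inflammasome activation, had 427 and 24996 (59.5-fold), and Gbp9, with the smallest difference of them, had 765 and 7088 (9.42-fold). A second Gbp5 probe gave a log2 difference of −1.08 where the brighter one gave −5.89. Of the immunity-related GTPases 9 of 9 detected were called, with a median of −3.23. Iigp1, an effector on vacuoles of Toxoplasma and Chlamydia, had 487 and 29936 (62.6-fold). The regulatory members differed less than Iigp1, with 18688 and 85939 for Irgm1 (4.68-fold), 10349 and 45102 for Irgm2 (4.43-fold) and 19300 and 139609 for Igtp (7.36-fold). Smaller differences were not particular to them, since Ifi47 differed 6.84-fold and Gm12250 9.39-fold. Tgtp1 and Tgtp2, near-identical copies, had 51.4 and 2938 and 14182 and 251980.

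Because all these genes differed in 1 direction, the sequences around their start sites were examined for the letters of the GAS element (TTCNNNGAA), the ISRE element (GAAA, any 2 bases, GAAA) and the κB element (GGG, any 3 bases, TTCC), on both strands, with bases allowed to count for more than 1 element. The windows, from RefSeq, hold 250 bases before and 50 bases after a start. For the GTPases of both families 12 of 20 detected genes matched the promoter table, with 13 windows, of which 11 held an ISRE match, 7 a GAS match and 2 a κB match. Over all 32851 windows the shares were 3.44% for ISRE, 8.30% for GAS and 5.56% for κB. Shown are Gbp2, Gbp5 and Igtp, which were chosen after their values and matches were seen because they show the arrangements found, with the matched letters in capitals and the rest in lower case, 5′ to 3′ on the gene's strand.
Gbp2 (GRCm38.p6, chr3:142620413-142620712, plus strand): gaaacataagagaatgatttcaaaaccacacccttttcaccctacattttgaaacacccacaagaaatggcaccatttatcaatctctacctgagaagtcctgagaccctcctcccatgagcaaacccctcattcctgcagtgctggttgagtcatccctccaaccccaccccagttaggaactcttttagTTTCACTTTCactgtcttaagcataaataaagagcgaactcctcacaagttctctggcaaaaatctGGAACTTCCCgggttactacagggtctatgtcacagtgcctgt
Gbp5 (GRCm38.p6, chr3:142496684-142496983, plus strand): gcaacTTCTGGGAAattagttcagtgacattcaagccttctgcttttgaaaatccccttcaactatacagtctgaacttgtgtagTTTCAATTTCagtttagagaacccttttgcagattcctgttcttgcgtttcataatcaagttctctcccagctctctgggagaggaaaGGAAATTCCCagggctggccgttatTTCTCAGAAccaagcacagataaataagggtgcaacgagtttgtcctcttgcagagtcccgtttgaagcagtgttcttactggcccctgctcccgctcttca
Igtp (GRCm38.p6, chr11:58199306-58199605, plus strand): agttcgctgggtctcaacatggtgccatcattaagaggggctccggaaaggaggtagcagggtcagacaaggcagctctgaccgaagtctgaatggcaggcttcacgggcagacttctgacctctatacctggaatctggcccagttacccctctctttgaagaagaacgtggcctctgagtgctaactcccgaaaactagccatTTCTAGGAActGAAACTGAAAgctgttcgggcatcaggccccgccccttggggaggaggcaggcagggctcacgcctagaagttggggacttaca
In Gbp2 the ISRE letters TTTCACTTTC, read from the opposite strand, lie from 59 to 50 bases before the start, and a κB match lies within the first 17 transcribed bases. In Gbp5 an ISRE match lies from 165 to 156 bases before the start, and GAS matches begin 245 and 52 bases before it. A κB match in Gbp5 lies from 77 to 68 bases before the start. In Igtp a GAS match (45 to 37 bases before the start) and an ISRE match (34 to 25) are adjacent. A match describes letters and is not evidence of binding.

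Genes of MHC class II presentation were also lower with CpG. Of 13 detected, 9 were higher with IFN-γ + αIL-10R and none with CpG, with a median of −2.55. The chains that form the surface molecule had signals of 2335 and 39514 for H2-Aa (17.2-fold), 21210 and 217861 for H2-Ab1 (10.4-fold) and 9971 and 201431 for H2-Eb1 (20.6-fold). The genes for the peptide-loading catalyst followed, with 802 and 28426 for H2-DMa (36.1-fold) and 5747 and 75532 for H2-DMb1 (13.4-fold). H2-Oa and H2-Ob, whose products restrain that catalyst, were dimmer and differed 19.1-fold and 5.85-fold. Ciita, the master regulator of the class II genes, had a low signal on both arrays, 114 and 258 (2.31-fold), and this difference was under 2-fold with normexp background correction (log2 difference −0.84). Ctss, the cathepsin that degrades the invariant chain, differed by less than the technical SD (243277 and 240072, −0.01), and the constitutive regulators Rfxap (0.15) and Rfxank (−0.12) by less than 2 of them. The invariant chain gene Cd74 carried an outlier mark and was not measured.

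In the class I pathway the processing and transport genes differed and the heavy chains differed less. Of 20 detected genes 9 were higher with IFN-γ + αIL-10R, none with CpG, and all 20 had a negative difference (median −0.86). The immunoproteasome subunits had signals of 29803 and 84423 for Psmb8 (2.88-fold), 17660 and 69645 for Psmb9 (4.01-fold) and 48846 and 170469 for Psmb10 (3.55-fold). The peptide transporter subunits Tap1 (2083 and 9215, 4.50-fold) and Tap2 (18648 and 78738, 4.30-fold) were alike in size of difference. Tapbpl, a peptide editor related to tapasin, had the largest difference of the list, 892 and 9078 (10.4-fold). Nlrc5, the transactivator of class I genes, had 2314 and 9603 (4.22-fold). By contrast, the heavy chain genes H2-K1 (−0.32) and H2-D1 (−0.29) and the light chain gene B2m (−0.14) were bright on both arrays and within 2-fold.

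Antiviral genes known from type I interferon responses showed a smaller shift. Of 26 detected genes 11 were higher with IFN-γ + αIL-10R and none with CpG, with a median of −0.93. Ifit2, which binds viral RNA, had signals of 2973 and 18236 (6.24-fold), Mx1, a dynamin-like antiviral GTPase, 3616 and 20612 (5.80-fold), and Rsad2, which encodes viperin, 5547 and 28088 (5.15-fold). The ubiquitin-like modifier gene Isg15 was bright on both arrays, 83557 and 192352 (2.34-fold). Within 2-fold were Usp18, the protease that removes ISG15 (−0.39), Oas2 (−0.02) and the RNA sensor gene Ddx58 (0.13), the only member above 0. Ifnb1 itself was not detected. Of the list's 21 promoter windows, 11 held an ISRE match.

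**Figure D2:**
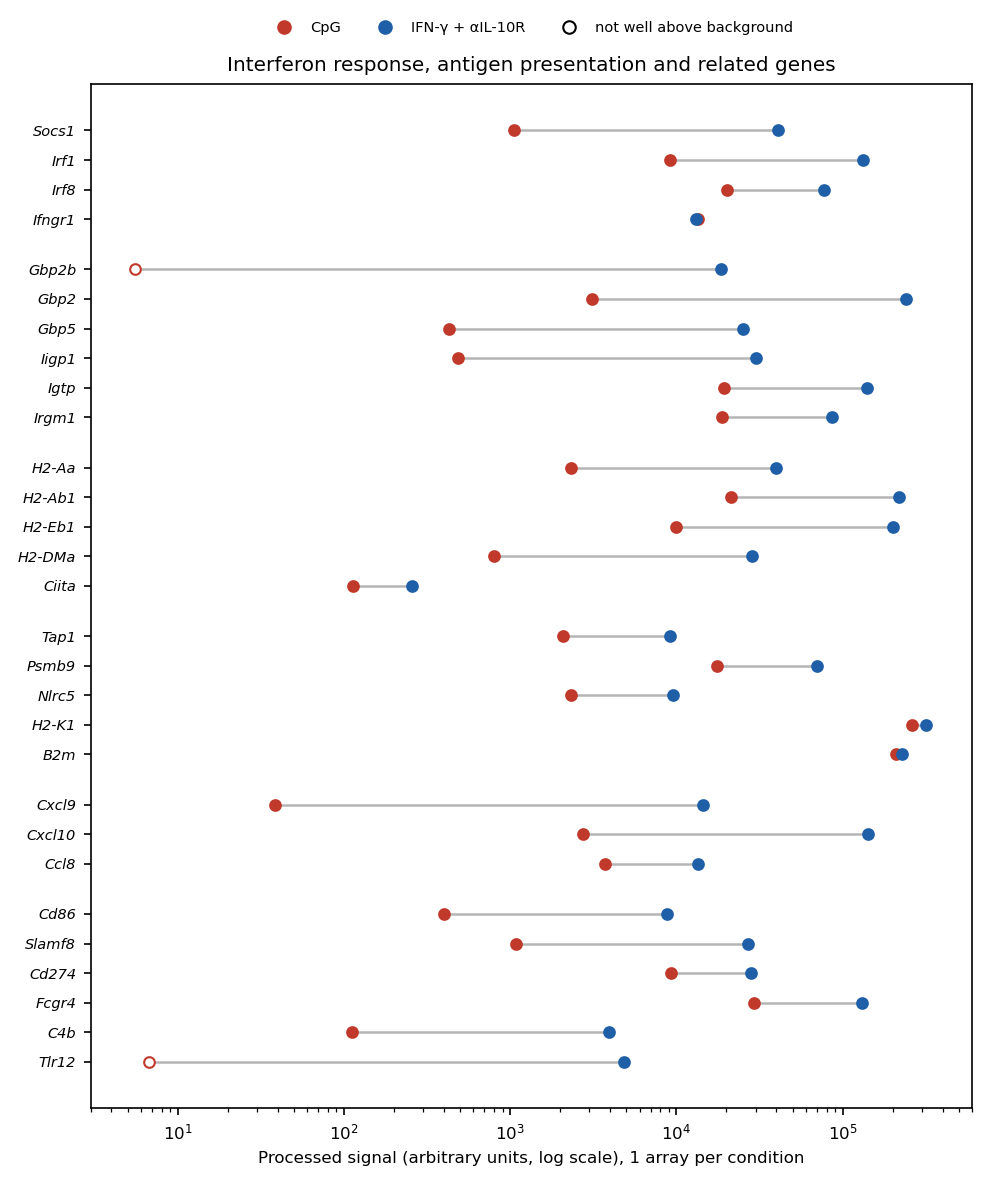
Processed signal (x axis, arbitrary units, log scale) of genes of the interferon response, antigen presentation and related functions with CpG (red) and with IFN-γ + αIL-10R (blue), 1 array per condition, joined by a line, open where the signal was not well above background. Every gene shown lies to the right with IFN-γ + αIL-10R except Ifngr1 (13427 and 13061), and H2-K1 and B2m differ by under 2-fold. The genes were picked by hand, and members of the same lists that were higher with CpG, such as Socs3, Cd14, Ccl3 and C3, are not shown here.

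Chemokines of both classes were measured. Of the 9 detected CXC chemokines 2 were higher with IFN-γ + αIL-10R, both ligands of CXCR3. Besides Cxcl9, described above, this was Cxcl10, with signals of 2738 and 142968 (53.1-fold). Cxcl11, the third ligand of that receptor, had nearly the same signal on both arrays (139598 and 136158, 0.01). The neutrophil attractant Cxcl2 was called higher with CpG, 85.2 against a signal not well above background (at least 3.14-fold), but not with normexp (0.65), and Cxcl1 had only a bound under 2-fold. Of 9 detected CC chemokines 3 were higher with CpG and 2 with IFN-γ + αIL-10R. Ccl3 (38880 and 5829, 6.56-fold) and Ccl4 (92350 and 22636, 4.01-fold), chemokines that TLR signals induce, and Ccl9 (2.86-fold) were higher with CpG. The monocyte attractants Ccl8 (3709 and 13495, 3.70-fold) and Ccl12 (2.23-fold) were higher with IFN-γ + αIL-10R, and Ccl2 (−0.12) and Ccl5 (−0.28) were bright on both arrays and within 2-fold. The medians, 0.37 for CXC and 0.0012 for CC chemokines, changed sign under at least 1 alternative.

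Receptors for chemokines and other attractants were more often called on the CpG side, with 6 of 10 detected genes higher with CpG and 1 lower (median 1.44). Beside Fpr1, its relative Fpr2 had signals of 6455 and 1343 (4.72-fold). Cx3cr1, the fractalkine receptor, had 6280 and 940 (6.57-fold), and Ccr3 had 8120 and 1461 (5.46-fold). C5ar1, the receptor for the complement fragment C5a (2.67-fold), and Cxcr4 (2.77-fold) were also higher with CpG. Ccrl2, a chemerin-binding receptor that does not signal by itself, was the exception, with 176 and 1116 (6.46-fold higher with IFN-γ + αIL-10R). On the Triple array Cx3cr1 had a signal of 111, below both other arrays, and Ccr7, the receptor that guides cells to lymph nodes, had 2892 where CpG had 319 and IFN-γ + αIL-10R had 225.

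Among Toll-like receptors and their partners, 6 of 16 detected genes were higher with IFN-γ + αIL-10R and 1 with CpG (median −0.79). Tlr9, the receptor for CpG, had signals of 1473 and 2566 (−0.83), and Unc93b1, the chaperone that carries it to endosomes, differed by less than 2 technical SDs (−0.15). The surface receptor Tlr2 was within 2-fold in the other direction (0.70). The receptors of mouse cells for protozoan profilin were above background only with IFN-γ + αIL-10R, Tlr12 as given above and Tlr11 with 269 (at least 11.5-fold). Tlr3, the receptor for double-stranded RNA (162 and 467, 2.93-fold), Tlr13, that for bacterial ribosomal RNA (2.05-fold, and −0.99 when all probes set the percentile), and Cd180 and its partner Ly86 (3.04-fold and 4.51-fold) were also higher there. Cd14, a coreceptor that delivers ligands to several TLRs, was the gene called in the other direction, with 55389 and 5534 (9.84-fold higher with CpG).

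Most genes that carry or restrain the TLR signal were within 2-fold. Myd88, the main adaptor, had signals of 19287 and 21660 (−0.19) and Irak2 had 12074 and 9997 (0.25). Of 12 detected genes of this group 3 were higher with CpG and none with IFN-γ + αIL-10R (median 0.42). These were Irak3, which encodes the inhibitory kinase IRAK-M (7877 and 883, 8.77-fold), Traf1 (2759 and 1098, 2.47-fold) and Map3k8, a kinase upstream of ERK (2.16-fold).

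Of 14 detected genes of NF-κB subunits and its feedback inhibitors, 8 were higher with CpG and none with IFN-γ + αIL-10R, with a median of 1.17. Nfkbia, which encodes the inhibitor IκBα, had signals of 84107 and 14117 (5.86-fold). Nfkbiz, a nuclear IκB protein needed for Il6 transcription, had 2603 and 252 (10.2-fold), and Zc3h12a, an RNase that degrades cytokine transcripts, had 1143 and 216 (5.20-fold). Bcl3, a nuclear cofactor of p50 and p52, had 33392 and 7776 (4.22-fold), and the A20-binding protein genes Tnip1 (47450 and 12625, 3.69-fold) and Tnip3 (2.68-fold) were higher as well. The subunit genes Nfkb2 (2.16-fold) and Relb (2.33-fold) of the noncanonical branch were near the threshold, and Relb was under it with the mean of its probes (0.83). The subunit gene Nfkb1 (−0.07) and Tnfaip3, which encodes A20 (2435 and 1684, 0.51), were within 2-fold.

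For this list 11 of the 14 detected genes matched the promoter table, and 10 of their 16 windows (62.5%) held a κB match, against 5.56% of all windows. GAS letters were in 4 of the 16 (25%), against 8.30% of all, and ISRE letters in 0. Nfkb2 and Tnfaip3 each had more than 1 window with a κB match, and some Nfkb2 windows overlap and share a match. The windows are thus not independent. Among the called genes with a window, Nfkbia, Tnip1 and Nfkb2 had a κB match, and Bcl3, Zc3h12a and Tnip3 had none. Nfkbid, Nfkbie, Tnfaip3 and Cyld, which were not called, also had a match. The windows of Nfkbia and Tnip1 are shown as called members with bright probes and a κB match. Bcl3 and Zc3h12a, which had no match, differed more than Tnip1. Marco, a scavenger receptor gene with one of the larger CpG differences among the lists, is shown as a gene outside the list. All windows shown were chosen after values and matches were seen, and capitals again mark matched letters.
Nfkbia (GRCm38.p6, chr12:55492598-55492897, minus strand): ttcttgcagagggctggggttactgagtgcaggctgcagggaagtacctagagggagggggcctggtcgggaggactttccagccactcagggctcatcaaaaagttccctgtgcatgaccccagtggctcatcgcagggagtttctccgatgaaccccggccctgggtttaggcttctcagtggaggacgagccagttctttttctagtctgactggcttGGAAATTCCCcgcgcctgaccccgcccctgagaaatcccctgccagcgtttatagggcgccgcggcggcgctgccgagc
Tnip1 (GRCm38.p6, chr11:54962891-54963190, minus strand): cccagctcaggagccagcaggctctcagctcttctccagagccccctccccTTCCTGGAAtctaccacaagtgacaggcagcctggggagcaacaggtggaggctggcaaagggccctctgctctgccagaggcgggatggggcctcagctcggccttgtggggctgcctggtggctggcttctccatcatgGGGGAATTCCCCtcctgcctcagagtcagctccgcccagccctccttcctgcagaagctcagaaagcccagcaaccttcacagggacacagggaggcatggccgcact
Marco (GRCm38.p6, chr1:120504975-120505274, minus strand): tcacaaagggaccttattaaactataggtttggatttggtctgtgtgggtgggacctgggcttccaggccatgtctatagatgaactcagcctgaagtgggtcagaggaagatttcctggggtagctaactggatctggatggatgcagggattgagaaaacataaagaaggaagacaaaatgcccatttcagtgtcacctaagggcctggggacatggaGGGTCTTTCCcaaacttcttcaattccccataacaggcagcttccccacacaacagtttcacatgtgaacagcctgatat
In Nfkbia the κB letters GGAAATTCCC lie from 29 to 20 bases before the start. In Tnip1 overlapping κB matches lie from 58 to 47 bases before the start, and a GAS match begins 199 bases before it. In Marco the letters GGGTCTTTCC lie from 30 to 21 bases before the start.

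Phosphatases that switch off MAP kinases and factors of the AP-1 and Egr families differed in both directions, with 5 of 18 detected genes higher with CpG and 3 with IFN-γ + αIL-10R (median 0.30). Dusp4 (857 and 117, 7.18-fold), Dusp2 (8771 and 1649, 5.23-fold) and Dusp1 (3312 and 1112, 2.93-fold), all phosphatases of MAP kinases, were higher with CpG, as were Egr2 (680 and 105, 6.39-fold) and Batf (8616 and 1641, 5.16-fold). Batf2, an interferon-responsive relative of Batf, differed the other way with 1902 and 48176 (25.8-fold). Egr1 was dim on both arrays (42.1 and 167, 4.04-fold higher with IFN-γ + αIL-10R). Fos (−0.09), Jun (0.32) and Atf3 (−0.13) were within 2-fold.

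Cytokine genes known from TLR responses also went both ways. Of 14 detected 6 were higher with CpG and 5 with IFN-γ + αIL-10R, and the median of 0.80 changed sign under an alternative (lowest value −0.09). Il1b was described above. Il6 had a signal of 319 with CpG against one not well above background (at least 11.8-fold), and Il12b, the p40 chain of IL-12 and IL-23, had 71.8 (at least 2.65-fold), which normexp brought under 2-fold (0.56). These signals were low beside the same probes on the Triple array, where Il6 had 24279 and Il12b had 8242. Il1rn, the antagonist of the IL-1 receptor, had 647 and 112 (5.70-fold), Ebi3, a chain shared by IL-27 and IL-35, had 83567 and 25835 (3.18-fold), and Il10 had 3117 and 1271 (2.41-fold). Tnf lay just inside the threshold (15636 and 7771, 0.98). The cytokines higher with IFN-γ + αIL-10R were Il15, a growth factor of NK and memory T cells (454 and 1943, 4.36-fold), Csf1, which encodes M-CSF (313 and 1178, 3.83-fold), Tnfsf15 (3.51-fold), Il18 (861 and 2928, 3.46-fold) and Il27 (2.12-fold, and −0.95 with normexp). Il12a, Il23a, Il1a, Csf2 and Csf3 were not detected.

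**Figure D3:**
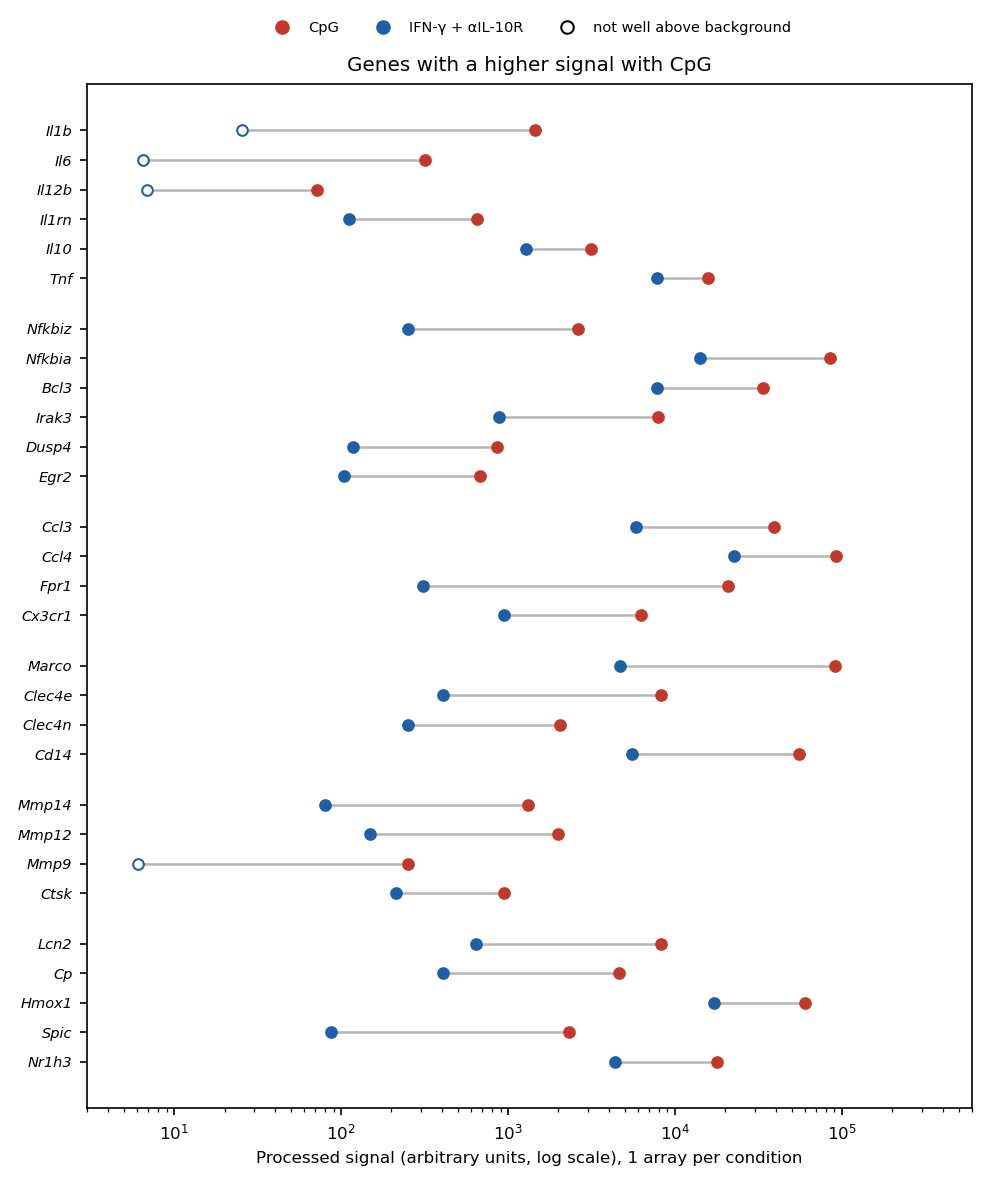
Processed signal (x axis, arbitrary units, log scale) of cytokine, NF-κB feedback, chemokine, receptor, protease and metal-handling genes with CpG (red) and with IFN-γ + αIL-10R (blue), 1 array per condition, joined by a line, open where the signal was not well above background. The genes shown were picked for a higher signal with CpG, from 1.98-fold for Tnf to 65.7-fold for Fpr1. Members of the same lists that were higher with IFN-γ + αIL-10R, such as Il15, Csf1, Il18 and Ccl8, are not shown here.

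The IL-10 receptor was blocked on only 1 side of the comparison, so genes of IL-10 signalling and its known targets were counted as well. Of 17 detected 7 were higher with CpG and 1 with IFN-γ + αIL-10R (median 0.27). Il10ra, the ligand-binding chain, was the one higher with IFN-γ + αIL-10R (8119 and 18952, 2.37-fold), and Il10rb differed by less than the technical SD (0.11). The targets higher with CpG included Clec4e and Il1rn, given above, Clec4d, a lectin that pairs with Mincle (85568 and 10279, 8.18-fold), Cebpd, a transcription factor of the acute phase (49209 and 9731, 4.97-fold), Hmox1, heme oxygenase (59939 and 17161, 3.43-fold), and Fcgr2b, the inhibitory IgG receptor (2223 and 941, 2.32-fold). No array held cells given CpG with the receptor blocked and without IFN-γ. Of the other targets, Sbno2 (0.27), Etv3 (0.26), Nfil3 (−0.39) and Zfp36 (−0.07) were within 2-fold.

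Of 10 detected genes of nitric oxide, arginine and itaconate metabolism, 3 were higher with IFN-γ + αIL-10R and 1 with CpG. Nos2, inducible nitric oxide synthase, had signals of 155 and 448 (2.95-fold higher with IFN-γ + αIL-10R), against 72449 on the Triple array, and the arginine transporter gene Slc7a2 had its signal above background only with IFN-γ + αIL-10R (62.1, at least 2.66-fold, and −0.69 with normexp). Acod1, the itaconate-producing enzyme, had 11599 and 21684 (−0.93), just inside the threshold. Gch1, which makes the cofactor of nitric oxide synthase, was the one gene higher with CpG (11031 and 5093, 2.13-fold). Kynu of tryptophan breakdown was above background only with IFN-γ + αIL-10R (146, at least 6.23-fold). Arg1 and Ido1 were not detected, and the list's median of −0.03 changed sign with the scaling.

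Of 14 detected genes of prostanoid and leukotriene synthesis and response, 4 were higher with IFN-γ + αIL-10R and 2 with CpG (median −0.34). Ptgs2, the inducible cyclooxygenase, had signals of 142 and 513 (3.67-fold), against 29014 on the Triple array, and Pla2g4a, which frees arachidonic acid, had 4567 and 12278 (2.73-fold). Tbxas1, thromboxane synthase, had 8734 and 29955 (3.49-fold, and −0.997 with the mean of its probes). Alox5, the first enzyme of leukotriene synthesis, had 484 and 110 (4.34-fold higher with CpG). Probes of Ptges disagreed, with −0.47 for the brighter and 1.05 for another.

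Scavenger and mannose receptors were called more often on the CpG side, 5 of 14 detected against 1, with a median of 0.57 that changed sign under an alternative (−0.11). Marco, which binds bacteria and particles, had signals of 90138 and 4671 (19-fold) and 283316 on the Triple array. Clec4n, the receptor Dectin-2 for fungal mannans, had 2039 and 252 (7.95-fold), Cd5l, a secreted protein of tissue macrophages, had 76373 and 18603 (4.04-fold), and Stab1, a clearance receptor, had 15466 and 5726 (2.66-fold). Clec10a, a galactose-type lectin, was the receptor higher with IFN-γ + αIL-10R (478 and 1753, 3.73-fold). Mrc1, the mannose receptor, had 5910 and 3274 (0.83), while its signal on the Triple array was 76.4. Msr1 (0.71), Cd36 (−0.22) and Cd68 (−0.34) were within 2-fold.

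The study concerned engulfment, and receptors and bridging proteins for apoptotic cells were therefore listed. Of 22 detected 5 were higher with IFN-γ + αIL-10R and 2 with CpG (median −0.29). The kinases Axl (2604 and 8609, 3.36-fold) and Mertk (812 and 1983, 2.48-fold), receptors for proteins that bridge to phosphatidylserine, were higher with IFN-γ + αIL-10R, as were the phosphatidylserine receptor gene Havcr2 (698 and 2392, 3.49-fold), the integrin subunit gene Itgav (2.35-fold, and −0.88 with outlier spots kept) and Tgm2, transglutaminase 2, which acts with integrin β3 (8482 and 86441, 10.4-fold). Itgb3 itself had 303 and 51.1 (5.82-fold higher with CpG), with a second probe at 0.38. The bridging protein genes Gas6 (40574 and 21687, 0.88) and Mfge8 (63047 and 35450, 0.81) were within 2-fold, and Pros1 differed less (−0.21). The 3 genes of C1q had differences from −0.66 to −0.58.

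Among Fcγ receptors and their signalling partners, 3 of 9 genes were higher with IFN-γ + αIL-10R and 2 with CpG (median −0.15). The activating receptors had signals of 29334 and 131570 for Fcgr4 (4.56-fold), 7748 and 18931 for Fcgr3 (2.49-fold) and 25730 and 52579 for Fcgr1 (2.08-fold). The inhibitory receptor gene Fcgr2b was higher with CpG, as given above. Syk, the kinase downstream of activating receptors, had 32408 and 9302 (3.42-fold higher with CpG), with a second probe at 1.72. The shared signalling chain Fcer1g differed by less than the technical SD (−0.04).

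Of 16 detected costimulatory and checkpoint genes 7 were higher with IFN-γ + αIL-10R and none with CpG (median −0.79). Cd86, a ligand of CD28, had signals of 401 and 8762 (22.2-fold), whereas Cd80, the other ligand of CD28, was dim on both arrays and within 2-fold (100 and 88.3). Slamf8 had 1081 and 26870 (25.3-fold). Cd40 had 1451 and 4777 (3.35-fold), and Cd274, which encodes PD-L1, had 9287 and 27931 (3.06-fold). Pdcd1lg2, which encodes PD-L2, was called (3.02-fold), but a second probe gave a log2 difference of 0.02.

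Adhesion receptors were mostly within 2-fold (13 of 19 detected, median −0.07, a sign that changed under an alternative). Higher with CpG were Itgal (9044 and 3532, 2.52-fold) and Itgam (26993 and 10576, 2.51-fold), the α chains of the β2 integrins LFA-1 and Mac-1, whereas their shared β chain gene Itgb2 was within 2-fold (0.20). Those higher with IFN-γ + αIL-10R included Itgb7 (4531 and 27578, 6.19-fold), Icam2 (2748 and 8753, 3.24-fold) and F11r (2.31-fold). Itga4, the partner of Itgb7 and the α chain of VLA-4, had 5728 and 10968 (−0.96).

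Inflammasome genes were mostly alike, with 11 of 14 detected within 2-fold (median −0.42). Mefv, which encodes pyrin, had signals of 460 and 76.2 (5.94-fold higher with CpG). The sensors Nlrp1b (495 and 1902, 3.91-fold) and Nlrp3 (111 and 298, 2.72-fold) were higher with IFN-γ + αIL-10R. Casp1 (−0.83), Casp4 (−0.81) and Gsdmd, the pore-forming effector (−0.40), were within 2-fold, and 13 of the 14 had a lower signal with CpG.

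Complement genes included some of the largest differences in both directions, with 6 of 14 detected higher with IFN-γ + αIL-10R and 3 with CpG and a median near 0 (0.017) whose sign changed with the scaling. C4b had signals of 112 and 3924 (35.8-fold higher with IFN-γ + αIL-10R), and also higher there were C1ra (3.03-fold) and Cfb (10531 and 22464, 2.17-fold). Serping1, the C1 inhibitor gene, was called (2.72-fold), but not with normexp (−0.75). C3, the central component, was higher with CpG (79788 and 29040, 2.70-fold), and so was the surface inhibitor gene Cd55.

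Of 12 detected matrix metalloproteinase and inhibitor genes 7 were higher with CpG and 2 with IFN-γ + αIL-10R (median 1.49). Mmp14, a membrane-bound protease, had signals of 1315 and 79.5 (16.3-fold), Mmp12, macrophage elastase, had 1994 and 149 (13.1-fold), with a second probe at 1.01, and Mmp9, gelatinase B, had 251 against a signal not well above background (at least 9.25-fold). Mmp27 (7.13-fold) and Mmp8 (340 and 83.8, 3.99-fold) were also higher with CpG, as was the inhibitor gene Timp2 (2.19-fold, second probe 0.13). Mmp25 (239 with IFN-γ + αIL-10R, at least 9.27-fold) and Mmp13 (988 and 2111, 2.17-fold) differed the other way, and Timp1 was within 2-fold (−0.89).

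Glycolytic genes were within 2-fold with 3 exceptions among 22 detected, all higher with IFN-γ + αIL-10R (median −0.20). These were Hk3, a hexokinase of myeloid cells (13267 and 61684, 4.73-fold), Slc2a6, a hexose transporter gene (8774 and 29303, 3.4-fold), and Pfkp, a phosphofructokinase gene (3.13-fold, second probe −0.75). Hk2 (0.53), Slc2a1 (−0.23), Pfkfb3 (−0.43) and Ldha (−0.20) were within 2-fold.

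Of 18 detected genes of sterol synthesis, uptake and efflux, 5 were higher with CpG and 1 with IFN-γ + αIL-10R (median 0.61). Ch25h, whose product 25-hydroxycholesterol suppresses sterol synthesis, had signals of 953 and 13398 (14.3-fold higher with IFN-γ + αIL-10R). Idi1 (1958 and 763, 2.52-fold) and Cyp51 (243 and 96.4, 2.48-fold, and 0.97 with normexp), enzymes of cholesterol synthesis, were among the genes higher with CpG. Probes of Fdft1 and Srebf2 disagreed in direction. Nr1h3, the sterol-sensing receptor LXRα, had 17776 and 4388 (3.98-fold higher with CpG), while of the efflux transporter genes Abca1 (0.67) and Abcg1 (−0.94) were within 2-fold on opposite sides.

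Heme and iron genes had 5 of 12 detected members higher with CpG, none higher with IFN-γ + αIL-10R and none below 0 (median 0.55). Lcn2, lipocalin 2, which captures bacterial siderophores, had signals of 8253 and 637 (12.7-fold). Cp, ceruloplasmin, had 4640 and 407 (11.2-fold), with a second probe at 0.52. Hp, haptoglobin (3.75-fold), Slc11a2, an iron transporter gene (2.19-fold, second probe 0.17), and Hmox1 were the others. The ferritin chain genes Fth1 (0.13) and Ftl1 (0.04) and the iron exporter gene Slc40a1 (0.33) were within 2-fold.

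Lysosomal genes were bright and mostly alike, with 15 of 19 detected within 2-fold and a median of 0.0082 whose sign changed with the scaling. Ctsk (947 and 213, 4.38-fold) and Ctsl (207806 and 94467, 2.16-fold), cysteine cathepsins, and the proton pump subunit gene Atp6v0d2 (2.67-fold) were higher with CpG. Ctsc, which activates granule serine proteases, was higher with IFN-γ + αIL-10R (28914 and 83904, 2.95-fold). Ctsb (0.01), Ctsd (0.22) and Lamp1 (−0.15) were within 2-fold.

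Cell cycle genes were within 2-fold with few exceptions, but nearly all lay on the same side. Of 29 detected DNA replication genes none was called and 26 had a lower signal with CpG (median −0.31). Of 28 detected mitosis and spindle genes 28 had a lower signal with CpG, and 2 were past 2-fold (median −0.43), against 49.6% of all detected genes lower with CpG. Tpx2, a spindle assembly factor, had signals of 1380 and 2925 (2.16-fold, second probe −0.77), and Kif23, a cytokinesis motor, lay at the threshold (387 and 763, 2-fold) and was under it with each other scaling tried but spike-in scaling (−0.98 to −0.95). Pcna, the replication clamp, had 48838 and 76982 (−0.68), E2f8 had 1832 and 3243 (−0.85), Top2a had 1544 and 2558 (−0.75), and Mki67, which encodes Ki-67, had 5178 and 5297 (−0.06). Probes of Cdk1 disagreed (−0.38 and 0.46). On the Triple array Pcna had a signal of 21664 and Mki67 one of 928, both lower than on the other arrays.

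Factors of macrophage identity were within 2-fold in 14 of 19 cases (median 0.26). Spi1, which encodes PU.1, had signals of 3061 and 1908 (0.66), and Cebpa (0.32), Maf (0.79) and Pparg (0.37) were likewise within 2-fold. Spic and Nr1h3, given above, were higher with CpG. Id3, an inhibitor of bHLH factors (1764 and 7072, 4.08-fold), Klf2, a Krüppel-like factor that restrains inflammatory genes (1518 and 4926, 3.30-fold), and the nuclear receptor gene Nr4a1 (2.26-fold) were higher with IFN-γ + αIL-10R.

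The plot of list members sets all lists side by side. Genes of interferon-inducible GTPases and MHC class II had the lowest medians, and metalloproteinases, attractant receptors and NF-κB feedback the highest. The order of the highest depends on the processing. Their lowest medians under any alternative were 0.68 for metalloproteinases, 0.48 for attractant receptors and 0.97 for NF-κB genes. Since the lists differ in size and were chosen with earlier results of these arrays known, these medians describe the members listed and nothing beyond them.

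**Figure D4:**
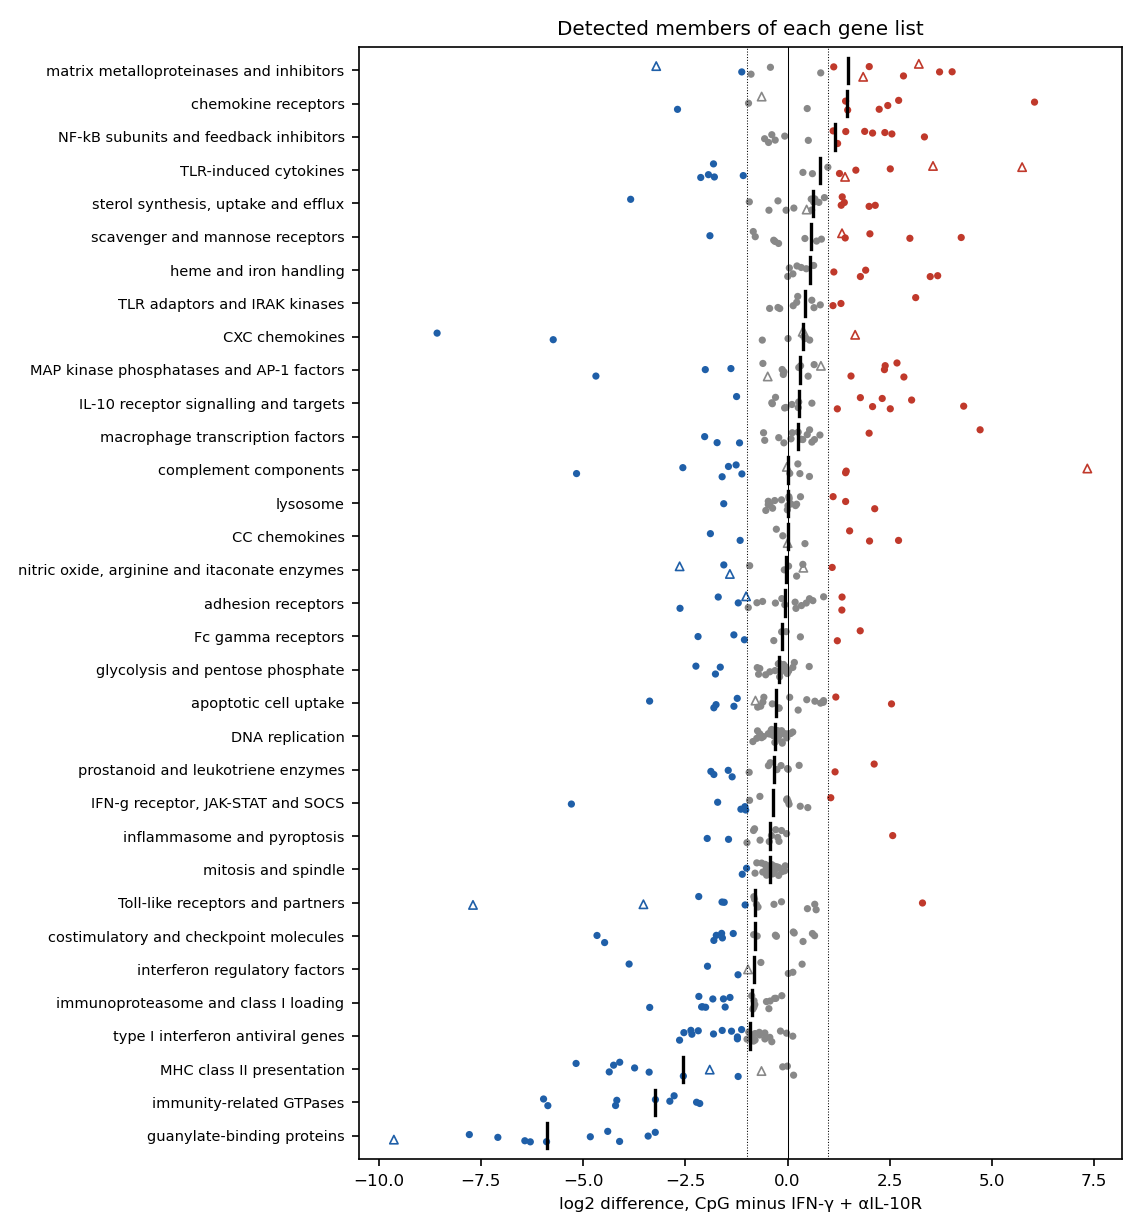
Log2 difference (x axis, CpG minus IFN-γ + αIL-10R) of each detected member of 33 gene lists (rows, ordered by median), 1 array per condition, with red for genes higher with CpG, blue for genes higher with IFN-γ + αIL-10R, grey for genes not called, triangles for bounds, bars for list medians and dotted lines at 2-fold. Medians run from −5.89 for guanylate-binding proteins to 1.49 for matrix metalloproteinases.

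Beyond the lists, the elements searched for in the promoter windows were counted over all called genes. A window was found for 607 of the 1068 genes higher with IFN-γ + αIL-10R (758 windows) and for 568 of the 925 genes higher with CpG (722 windows). ISRE letters were in 11.2% of the windows on the IFN-γ + αIL-10R side, 3.88% on the CpG side and 2.86% of the 11483 windows of detected genes that were not called. For GAS the shares were 9.50%, 7.48% and 6.90%, and for κB 7.26%, 6.93% and 6.36%, in the same order. MHC class II genes, most of which were higher with IFN-γ + αIL-10R, had ISRE letters in 1 and GAS letters in 1 of 11 windows. No match says only that these letters are not in the window.

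**Figure D5:**
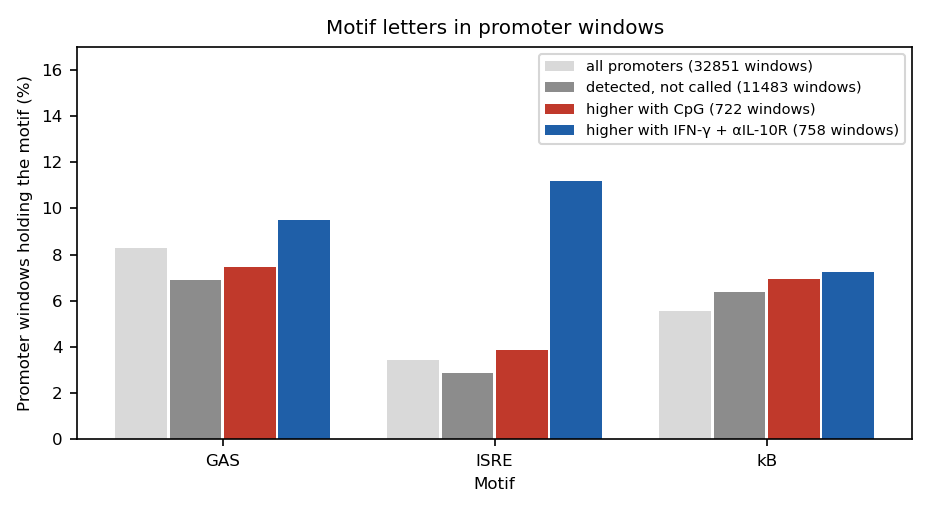
Percentage of promoter windows (y axis) that hold the letters of the GAS, ISRE or κB (kB) element (x axis), for all promoters of the table, detected genes that were not called, and genes higher with CpG or with IFN-γ + αIL-10R, 1 bar for each set. The ISRE bar of genes higher with IFN-γ + αIL-10R reaches 11.2%, against 2.86% to 3.88% for the other sets.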

How the data were processed

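Total RNA of BMDMs was labelled with Cy3 and hybridized to Agilent SurePrint G3 Mouse Gene Expression arrays (8 × 60K), 1 colour. Spots were read with Agilent Feature Extraction 10.10.1.1. The authors deposited its processed signal, a linear intensity after background subtraction, and a log2 table that equals log2 of the processed signal after subtraction of a single constant for each array (within 0.01 at 99.7% of the probes), with its direction that of the signal. The median of its columns lay between −4.38 and −4.26. Saturated spots would have been kept, but there were none.

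Controls and outlier spots (3.04% with CpG, 3.78% with IFN-γ + αIL-10R) were dropped, replicate spots were averaged as log2 values, and the arrays were aligned at the 75th percentile of the 21233 probes that were well above background everywhere, because on average 44.2% of the probes, under the limit of 50%, were detected. The shifts corresponded to signals of 4550 for CpG and 4473 for IFN-γ + αIL-10R, and the lowest signals well above background were 23.8 and 26.7. Each gene name of the array was represented by the probe of highest mean. Current symbols came from RefSeq (GRCm38.p6) for 27491 of the 27985 probes that carry a RefSeq accession. Array names differ for Gbp2b (Gbp1), Cd55b (Daf2), Acod1 (Irg1), Adgre1 (Emr1), and Spi1 (Sfpi1).

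The comparison, the 41 gene lists (33 of function and 8 of cell type markers, 578 genes, 553 measured), and the promoter elements were chosen with earlier results of these data known. The genes named are the 10 with the largest measured fold and the 5 with the largest bound in each direction, and in each list its key genes, the 4 with the largest difference, and the largest in the other direction, together with the detected members of the marker lists. Other list members named were chosen after their values were seen. Names that are accessions, clones or coordinates were left out of the rankings. With 1 array per condition no p-value is given. Alternatives covered scaling, background correction (normexp, offset 50, limma 3.58.1, R 4.3.3), filters, thresholds, ways to combine probes, the deposited table, and the exclusion of genes whose probe lies in the first 48 of 384 rows. Some members of the lists are not reported here. The code was tested on simulated data. Python 3.11.15, numpy 2.4.6 and pandas 2.3.3 were used.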

Additional observations from a re-analysis of the deposited data

How the results depend on the processing

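No paired analysis was possible because there was 1 array per condition. Of 15 alternatives, 4 moved the counts of genes higher with CpG (925) and with IFN-γ + αIL-10R (1068) by more than 1.5 times. They were 554 and 708 with normexp, 2369 and 2502 when dim signals were neither filtered nor limited from below, which lets dim probes enter, 2049 and 2347 with a 1.5-fold threshold, and 421 and 515 with a 3-fold threshold. For normexp the cause was not tested. The other 11 kept both counts within 1.5 times, and CpG took 42.3% (spike-in scaling) to 50% (75th percentile over all probes) of the calls under other scalings, against 46.4%. Of the 220 called genes among the list members and the largest differences, 25 fell under 2-fold in at least 1 of the 12 alternatives applied to single genes, and the rest were past it wherever they were detected. Normexp took 17 genes under 2-fold, the mean of all probes took 9, a percentile set by all probes and the deposited values took 5 each, and the other alternatives 0 to 3. Pdcd1lg2 alone changed sign (0.02, RefSeq mRNA probes only). Of the key genes fixed for each list and the largest differences, the calls lost were Ciita (−0.84), Cxcl2 (0.65), Il12b (0.56), Serping1 (−0.75), and Slc7a2 (−0.69) with normexp, and Relb (0.83) with the mean of its probes. Of 533 list medians under 13 alternatives, 63 differed from the main value by more than the technical SD of 0.12. Dim signals limit the bounds, which depend on the lowest signal well above background.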
